A study of Mus musculus with 6 samples.

Results

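The genes described here are 38 genes of fatty acid beta-oxidation and ketone body formation, chosen by symbol. All 38 were among the 23291 gene symbols listed in the RNA sequencing tables of mouse liver. They were split into 21 genes of mitochondrial steps, 13 genes of peroxisomal steps, and 4 genes that are regulators or other target genes of the pathway's main regulator. In the dabigatran group, C57BL/6 mice received for 3 months a high fat (Western) diet that held 10 mg of dabigatran etexilate per gram. In the diet group, C57BL/6 mice received the Western diet without the drug for the same 3 months. Age and sex were not used here, and both groups were on the fat-rich diet, so no liver of mice on normal chow enters. Each group had 3 deposited tables, but the values of dabigatran replicate 0 equalled those of dabigatran replicate 1 in every one of the 23291 genes, so this pair entered as 1 library. The comparison therefore rests on 2 dabigatran libraries and 3 diet libraries.

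Dabigatran etexilate is an oral prodrug of dabigatran, which inhibits thrombin, the protease that makes fibrin. Liver cells break down long-chain fatty acids mainly in mitochondria, which the acyl chains enter as carnitine esters. There, acyl-CoA dehydrogenases, enoyl-CoA hydratases, hydroxyacyl-CoA dehydrogenases and thiolases act in turn, and much of the acetyl-CoA released in fasting liver becomes ketone bodies. Peroxisomes shorten very long and branched chains with enzymes of their own. Many genes of both organelles are targets of PPAR alpha, a nuclear receptor that binds fatty acids. Levels are given as FPKM, which are sequenced fragments scaled to gene length and to library size, so levels of different genes can be compared.

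Most of the 38 genes had lower values with dabigatran, by modest amounts. The fitted difference (dabigatran minus diet, on the scale of log2(FPKM + 0.5)) was below 0 for 32 of the 38 genes, beside 48.1% of the 10247 genes tested. In 20 of them both dabigatran libraries lay below all 3 diet libraries, which held for 17.2% of all tested genes, and 1 gene, Cpt1a, had both dabigatran libraries above all diet libraries (17.2% of all tested genes). The median difference was -0.25 for the mitochondrial genes, -0.21 for the peroxisomal genes and 0.02 over all tested genes. Few single genes passed the test. With limma and an adjusted p under 0.05 over all tested genes, 3 of the 38 fell (Vnn1, Aldh3a2 and Acaa1b) and none rose, where 0.303% of all tested genes fell and 0.127% rose, 0.429% in either direction. A fitted difference of at least 2-fold was found downward in 7 of the 38 genes and upward in 0, beside 3.91% and 2.21% of all tested genes. At an unadjusted p under 0.05, 13 of the 38 were lower and none higher, beside 9.13% and 6.87% of all tested genes. Since the material is bulk tissue, fewer cells of a type and less RNA per cell cannot be told apart.

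**Figure D1:**
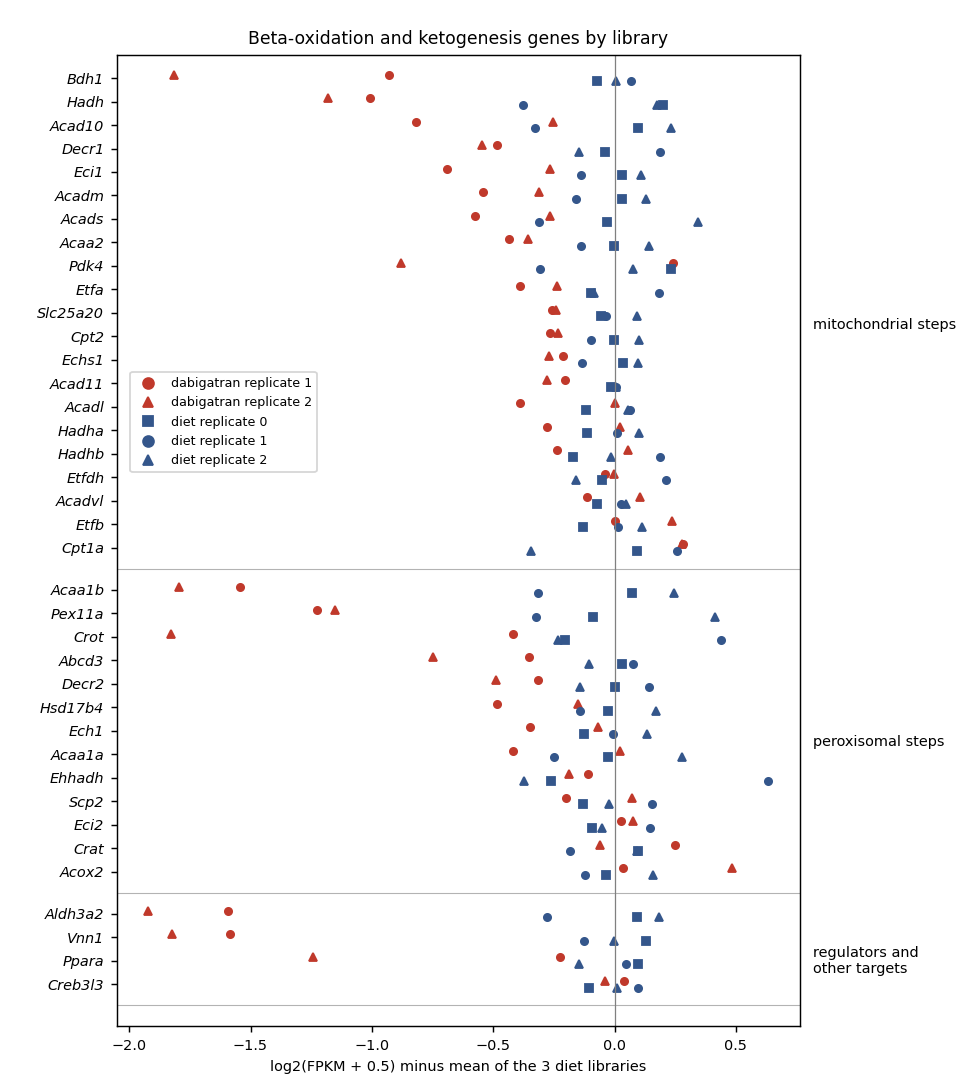
Level of each of the 38 genes in each library, as log2(FPKM + 0.5) minus the mean of the 3 diet libraries (x axis), with red for dabigatran and blue for diet and a symbol for each replicate number. Both dabigatran libraries lie left of all diet libraries in 20 genes, and the farthest left are Aldh3a2, Vnn1, Acaa1b, Crot and Bdh1.

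Summed over the 38 genes, FPKM made up 1.48% and 1.40% of the library total in dabigatran replicates 1 and 2, against 2.015%, 1.998% and 2.003% in diet replicates 0, 1 and 2. The diet libraries lay close together in this sum and both dabigatran libraries lay below them. For the 21 mitochondrial genes the sum was 2592 and 2814 FPKM in the dabigatran libraries, against 3189.8, 3207 and 3355 in the diet libraries. For the 13 peroxisomal genes it was 3812 and 3855 FPKM in the dabigatran libraries, against 4763, 5533 and 5094 in the diet libraries. Scp2, Acaa1b and Crot carried most of the peroxisomal sum, and without them it was 1368 and 1435 FPKM in the dabigatran libraries against 1559, 1829 and 1657 in the diet libraries. The groups did not overlap in this smaller sum either.

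The libraries had depths of 0.857 and 0.772 (dabigatran replicates 1 and 2) and 1, 0.761 and 0.967 (diet replicates 0, 1 and 2), relative to diet replicate 0, and 10006 to 10399 genes reached 1 FPKM. Hepatocyte markers were abundant in every library, with the albumin gene Alb at 18532 and 27246 FPKM in the dabigatran libraries and 18647 to 21821 in the diet libraries. Of 10 hepatocyte markers, 6 were higher in both dabigatran libraries than in any diet library and 1 was lower, and their summed level was 34122 and 49176 FPKM against 30387 to 33201 in the diet libraries. Macrophage markers summed to 281 and 190.5 FPKM in the dabigatran libraries and 195 to 255 in the diet libraries (11 genes), and sinusoidal endothelial markers to 124 and 122 against 129 to 132 (9 genes). Of these 9 endothelial markers, 6 were higher in both dabigatran libraries than in any diet library and 2 were lower, with a median difference of 0.31. Over all tested genes 17.2% were higher and 17.2% lower without overlap. Stellate cell markers summed to 112 and 119 FPKM in the dabigatran libraries and 108 to 154 in the diet libraries (10 genes), and bile duct markers to 39.0 and 11.1 against 32.8 to 52.0 (6 genes). Of 7 adipocyte markers, Plin1 and Lep were listed at 0 in every library. The adipocyte markers summed to 19.6 and 39.1 FPKM in the dabigatran libraries and 46.2 to 188 in the diet libraries, of which Cfd, listed at 0 in both dabigatran libraries, made up 28.3 to 150.4 FPKM in the diet libraries. The lymphocyte genes Cd3e, Cd3g and Cd4 were under 1 FPKM in every library. The part of these marker differences in the results below was not tested.

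Promoter sequence was available for 33 of the 38 genes (RefSeq, GRCm38.p6), and the 250 bases before each start were searched on both strands for AGGTCA, any base N, and AGGTCA again, the direct repeat that PPAR alpha binds together with the retinoid X receptor. No member held it with up to 1 mismatch among its 12 fixed letters, beside 0.566% of the 27025 genes in the promoter table. With up to 2 mismatches it was found in 3 of 33 genes (9.09%), against 3.72% of all genes. These were Etfa, Echs1 and Creb3l3, with AGGGCAAAGGTAA, AGGTCACGGGTCC and AGGGGAGAGGTCA in the orientation of the motif. The Creb3l3 site belongs to a start inside the gene, and the closest match at its upstream start had 4 mismatches. The stretches around the Echs1 and Creb3l3 sites overlap exons of the same genes. The hexamer AGGTCA alone, which is contained in the longer motif, occurred in 6 of the 33 genes (18.2%) and in 15.8% of all genes. The stretches below show the closest match, in capitals, for 4 of the 7 genes with a fitted difference of at least 2-fold and for Etfa, which had a close match. For Bdh1 the promoter of its upstream start is shown. Each is written 5′ to 3′ on the strand of its gene, and the match of Acaa1b, Bdh1, Hadh and Etfa lies on the opposite strand.
Acaa1b (chr9:119157204-119157336, minus strand): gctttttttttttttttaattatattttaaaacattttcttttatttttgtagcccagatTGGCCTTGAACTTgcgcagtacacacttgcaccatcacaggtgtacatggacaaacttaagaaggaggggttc
Pex11a (chr7:79743231-79743363, minus strand): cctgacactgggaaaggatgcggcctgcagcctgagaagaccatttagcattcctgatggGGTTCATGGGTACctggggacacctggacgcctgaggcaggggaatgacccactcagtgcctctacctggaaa
Bdh1 (chr16:31422109-31422241, plus strand): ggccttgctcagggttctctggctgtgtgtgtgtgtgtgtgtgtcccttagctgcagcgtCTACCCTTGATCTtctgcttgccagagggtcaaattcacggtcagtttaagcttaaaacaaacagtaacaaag
Hadh (chr3:131272115-131272247, minus strand): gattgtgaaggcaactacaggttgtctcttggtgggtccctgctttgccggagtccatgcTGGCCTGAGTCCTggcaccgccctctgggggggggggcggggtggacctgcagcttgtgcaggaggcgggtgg
Etfa (chr9:55512248-55512380, minus strand): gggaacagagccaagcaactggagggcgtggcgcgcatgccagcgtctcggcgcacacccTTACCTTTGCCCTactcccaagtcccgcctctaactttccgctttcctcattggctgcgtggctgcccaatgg
Acaa1b and Bdh1 differed from the motif at 4 fixed letters, Pex11a at 5, Hadh at 3 and Etfa at 2. These are matches of letters in a short window and show no binding.

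For the carnitine-dependent entry of acyl chains into mitochondria, the RNA levels of Cpt1a, Slc25a20 and Cpt2 were measured. Cpt1a (chromosome 19, 3322334 to 3385733, GRCm38) encodes the outer membrane carnitine palmitoyltransferase, the step that malonyl-CoA inhibits. It had 186 FPKM in each of dabigatran replicates 1 and 2, against 163, 183 and 120.2 FPKM in diet replicates 0, 1 and 2. Both dabigatran values lay just above diet replicate 1, so the groups did not overlap, but the difference of 0.28 ± 0.21 (SE) had a 95% interval of -0.20 to 0.76 (adjusted p = 0.555). Slc25a20, the carrier that exchanges acylcarnitine for carnitine across the inner membrane, had 81.5 and 82.4 FPKM in the dabigatran libraries and 93.7, 95.1 and 104 in the diet libraries. Cpt2, which returns the chain to coenzyme A inside the matrix, had 64.2 and 65.8 FPKM in the dabigatran libraries and 77.2, 72.3 and 83.1 in the diet libraries. For both of these genes the dabigatran libraries lay below all diet libraries, with a difference of -0.25 each (adjusted p = 0.482 for Slc25a20 and 0.493 for Cpt2). The ratio of Cpt1a to Cpt2 within a library was 2.89 and 2.82 in the dabigatran libraries and 2.11, 2.52 and 1.45 in the diet libraries.

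Of the acyl-CoA dehydrogenases, which take the initial oxidation step for chains of different length, none passed the test. Acadm, for medium chains, had 178 and 209 FPKM in the dabigatran libraries, against 266, 233 and 284 in the diet libraries (difference -0.43, 95% interval -0.84 to -0.02, adjusted p = 0.293). Acads, for short chains, had 45.5 and 56.5 FPKM in the dabigatran libraries, against 66.6, 54.7 and 86.5 in the diet libraries, where diet replicate 1 lay below dabigatran replicate 2. The long-chain gene Acadl had 89.7 and 118 FPKM in the dabigatran libraries and 108, 123 and 122 in the diet libraries, and the groups overlapped. The very long-chain gene Acadvl had 142 and 166 FPKM in the dabigatran libraries and 146, 157 and 159 in the diet libraries, with a difference of 0.00 (95% interval -0.38 to 0.38, adjusted p = 0.995). Exons of Acadvl and Dvl2 overlap on opposite strands, and 26.9% of its 50-base windows also occur in another gene, so its reads may not be fully its own. Acad11, which acts on longer chains and is also found in peroxisomes, had 136 and 129 FPKM in the dabigatran libraries and 155, 157 and 158 in the diet libraries. The spread among the diet libraries of Acad11 was small, and its difference was -0.24 (adjusted p = 0.488). Acad10, a related dehydrogenase of low level, had 4.18 and 6.43 FPKM in the dabigatran libraries and 8.32, 6.07 and 9.20 in the diet libraries. Its values rest on 31 and 43 fragments in the dabigatran libraries and 72, 40 and 77 in the diet libraries.

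Of the mitochondrial beta-oxidation genes that act after the acyl-CoA dehydrogenases, Hadh had the largest fitted fall. Among all mitochondrial genes only Bdh1, a ketone body gene given below, had a larger one. Hadh (chromosome 3, 131233419 to 131272101), the matrix hydroxyacyl-CoA dehydrogenase for short and medium chains, had 103 and 91.3 FPKM in the dabigatran libraries, against 239, 159.8 and 235 in the diet libraries. Both dabigatran libraries lay well below the lowest diet library, replicate 1. The difference was -1.10 ± 0.22 (SE; 95% interval -1.60 to -0.59), a ratio of 0.468, and the adjusted p of 0.0751 missed the threshold. Hadha and Hadhb encode the chains of the trifunctional protein, which carries out the same reactions on long chains at the inner membrane. Hadha had 74.7 and 92.2 FPKM in the dabigatran libraries and 83.7, 91.4 and 97.4 in the diet libraries. Hadhb had 128 and 157 FPKM in the dabigatran libraries and 134, 172 and 149.6 in the diet libraries, with 19.7% of its windows shared with other genes. The groups overlapped for both chains, with differences of -0.13 (95% interval -0.53 to 0.28) and -0.09 (-0.52 to 0.34). The ratio of Hadh to Hadha, which does not depend on the scaling of a library, was 1.38 and 0.990 in the dabigatran libraries and 2.85, 1.75 and 2.41 in the diet libraries.

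The enoyl-CoA hydratase gene Echs1 had 133 and 127 FPKM in the dabigatran libraries and 158, 140.3 and 165 in the diet libraries (difference -0.24, adjusted p = 0.514). The thiolase gene Acaa2, on chromosome 18, had 359.6 and 380.2 FPKM in the dabigatran libraries and 485, 442 and 537 in the diet libraries (-0.40, adjusted p = 0.317). For both genes the dabigatran libraries lay below all diet libraries. Unsaturated chains need auxiliary enzymes. The isomerase gene Eci1 had 95.5 and 129 FPKM in the dabigatran libraries and 158, 140.5 and 167 in the diet libraries (-0.48, adjusted p = 0.277). The dienoyl-CoA reductase gene Decr1 had 87.5 and 83.7 FPKM in the dabigatran libraries and 119, 139.6 and 110.5 in the diet libraries (-0.52, adjusted p = 0.214). The groups did not overlap for either gene, and the 95% intervals (-0.92 to -0.04 for Eci1 and -0.92 to -0.12 for Decr1) lay below 0, without either gene passing over all genes.

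The electron transfer flavoproteins pass electrons of the dehydrogenases to the respiratory chain. Etfa, for the alpha chain, had 179 and 199 FPKM in the dabigatran libraries and 219, 266 and 221 in the diet libraries. Etfb, for the beta chain of the same dimer, had 280.4 and 329.8 FPKM in the dabigatran libraries and 256, 283 and 303 in the diet libraries. The groups did not overlap for Etfa (-0.31, adjusted p = 0.422) and overlapped for Etfb (0.12, adjusted p = 0.782). Of the windows of Etfb, 44.8% also occur in the overlapping gene Gm45233 or in Mir7051 on the same strand. Etfdh, the dehydrogenase that hands the electrons to ubiquinone, had 177 and 181 FPKM in the dabigatran libraries and 175, 210.3 and 163 in the diet libraries, with a difference of -0.02 (95% interval -0.43 to 0.39).

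Bdh1 (chromosome 16, 31422280 to 31458901) encodes the mitochondrial enzyme that interconverts acetoacetate and beta-hydroxybutyrate. It had 37.3 and 20.0 FPKM in the dabigatran libraries, against 68.0, 74.9 and 71.7 in the diet libraries. The diet libraries were close together and dabigatran replicate 2 was the lowest. The difference of -1.37 ± 0.26 (SE; 95% interval -1.97 to -0.78), a ratio of 0.386, had the lowest p among the mitochondrial genes without passing over all genes (adjusted p = 0.0693). With 1 dabigatran library left, the difference of Bdh1 was -1.81 without dabigatran replicate 1 and -0.93 without dabigatran replicate 2. An antisense gene, Gm15743, shares 11.1% of its windows. The kinase gene Pdk4, whose product restrains pyruvate dehydrogenase in fasting, was at 10.5 and 4.56 FPKM with dabigatran and at 10.5, 7.03 and 9.30 in the diet libraries. Its dabigatran values rest on 74 and 29 fragments and its diet values on 86, 44 and 74, and its interval was wide (-0.32, 95% interval -1.11 to 0.47).

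**Figure D2:**
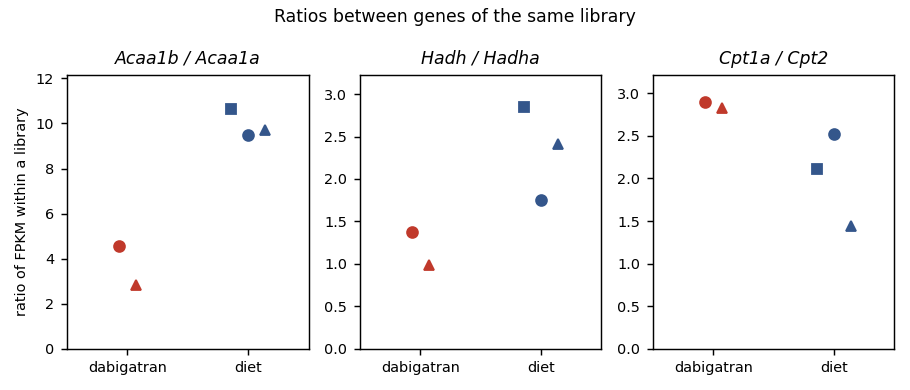
Ratio of the FPKM of a pair of genes within each library (y axis, from 0) in the dabigatran and diet groups, 1 point per library. The ratios Acaa1b to Acaa1a and Hadh to Hadha are lower in both dabigatran libraries than in any diet library, and that of Cpt1a to Cpt2 is higher. The pairs were chosen after their values were seen.

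Across the mitochondrial genes, 19 of 21 had a fitted difference below 0, beside 48.1% of all tested genes. In both dabigatran libraries 11 were lower than in all diet libraries and 1 was higher, beside 17.2% of all tested genes each way. By limma 0 of 21 passed over all genes, where 0.303% of all tested genes fell and 0.127% rose. At an unadjusted p under 0.05, 5 (Bdh1, Hadh, Decr1, Eci1 and Acadm) were lower, beside 9.13% of all tested genes. The library medians relative to the diet mean were -0.28 and -0.25 for dabigatran replicates 1 and 2, and -0.03, 0.01 and 0.09 for diet replicates 0, 1 and 2.

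Among the peroxisomal genes, Acaa1b (chromosome 9, 119148023 to 119157093) had the largest fitted fall. It encodes a peroxisomal thiolase. Its level was 289.9 and 244 FPKM in the dabigatran libraries, against 889.7, 680.02 and 1002 in the diet libraries. Both dabigatran values lay far below the lowest diet value, in replicate 1, and the difference of -1.67 ± 0.22 (SE) passed over all genes (adjusted p = 0.0404). Its paralog Acaa1a (chromosome 9, 119339676 to 119350299) had 63.6 and 86.4 FPKM in the dabigatran libraries and 83.5, 71.6 and 103 in the diet libraries, with overlapping groups (-0.20, 95% interval -0.71 to 0.31). The ratio of Acaa1b to Acaa1a was 4.56 and 2.82 in the dabigatran libraries and 10.7, 9.50 and 9.71 in the diet libraries. Some reads cannot be assigned to 1 of the paralogs: 39.6% of the windows of Acaa1b occur in other genes, chiefly Acaa1a, and 17.1% of those of Acaa1a, chiefly Acaa1b. Exons of Acaa1b also overlap Dlec1 on the opposite strand, and those of Acaa1a overlap Myd88.

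Pex11a (chromosome 7, 79735957 to 79743131), a membrane protein that promotes peroxisome elongation and division, had 39.2 and 41.2 FPKM in the dabigatran libraries, against 86.6, 73.5 and 123 in the diet libraries. These values rest on 57 and 54 fragments in the dabigatran libraries and 147, 95 and 202 in the diet libraries. Its groups were clearly apart, at a ratio of 0.439 (-1.19 ± 0.23, SE), and its adjusted p of 0.0751 missed the threshold. Abcd3, the membrane transporter also known as PMP70, had 174 and 132 FPKM in the dabigatran libraries and 227, 234 and 206 in the diet libraries (-0.55, 95% interval -0.98 to -0.12, adjusted p = 0.212). Crot, the carnitine octanoyltransferase that lets shortened chains leave the peroxisome, had 509 and 191 FPKM in the dabigatran libraries and 589.7, 919 and 578 in the diet libraries. Its groups did not overlap, with dabigatran replicate 2 far below replicate 1 and diet replicate 1 far above the other diet libraries (-1.12 ± 0.40, SE, adjusted p = 0.234). With 1 dabigatran library left, the difference of Crot was -1.83 without dabigatran replicate 1 and -0.42 without dabigatran replicate 2. Crat, the carnitine acetyltransferase of both organelles, had 26.3 and 21.1 FPKM in the dabigatran libraries and 23.6, 19.3 and 23.5 in the diet libraries, with overlap (0.09, 95% interval -0.36 to 0.55).

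Among other enzymes of peroxisomal oxidation the groups overlapped for Ehhadh, Acox2 and Scp2, and not for Hsd17b4. Ehhadh, the bifunctional hydratase and dehydrogenase, had 309 and 293 FPKM in the dabigatran libraries and 278, 518 and 258 in the diet libraries. Diet replicate 1 stood apart in Ehhadh, and both dabigatran values lay between it and the other diet libraries (-0.15, 95% interval -0.83 to 0.54). Hsd17b4, on chromosome 18, the multifunctional enzyme for branched chains and bile acid precursors, had 138 and 174 FPKM in the dabigatran libraries and 189.5, 175 and 218 in the diet libraries (-0.32, adjusted p = 0.449). Dabigatran replicate 2 lay just below diet replicate 1 in this gene. Acox2, the oxidase for branched chains and bile acid precursors, had 72.5 and 99.2 FPKM in the dabigatran libraries and 69.2, 65.0 and 79.1 in the diet libraries (0.26, 95% interval -0.20 to 0.71). Dabigatran replicate 2 was the highest of the libraries for Acox2, and replicate 1 lay among the diet libraries. Scp2, a thiolase and sterol carrier protein and the most abundant of the 38 genes, had 1645 and 1985 FPKM in the dabigatran libraries and 1725, 2104 and 1857 in the diet libraries (-0.06, 95% interval -0.53 to 0.40). Of its windows, 29.7% occur in other genes, chiefly a pseudogene.

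The auxiliary reductase gene Decr2 had 126 and 112 FPKM in the dabigatran libraries and 157, 173 and 142 in the diet libraries (-0.40, 95% interval -0.80 to -0.01, adjusted p = 0.306). Ech1, an isomerase of dienoyl-CoA found in both organelles, had 238 and 289 FPKM in the dabigatran libraries and 278, 302 and 333 in the diet libraries (-0.21, adjusted p = 0.605). Eci2, an enoyl-CoA isomerase found in both organelles, had 181 and 188 FPKM in the dabigatran libraries and 167, 197 and 172 in the diet libraries (0.05, adjusted p = 0.911). The dabigatran libraries of Decr2 lay below all diet libraries, whereas the groups overlapped for Ech1 and Eci2. In all, 10 of the 13 peroxisomal genes had a difference below 0, beside 48.1% of all tested genes. Without overlap 6 were lower and none higher, beside 17.2% of all tested genes each way. By limma 1 fell and none rose over all genes, where 0.303% of all tested genes fell and 0.127% rose. At an unadjusted p under 0.05, 5 were lower, beside 9.13% of all tested genes. The library medians were -0.35 and -0.15 for dabigatran replicates 1 and 2, and -0.03, -0.01 and 0.09 for diet replicates 0, 1 and 2. Without Eci2, Ech1 and Crat, which act in both organelles, the peroxisomal median was -0.36.

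**Figure D3:**
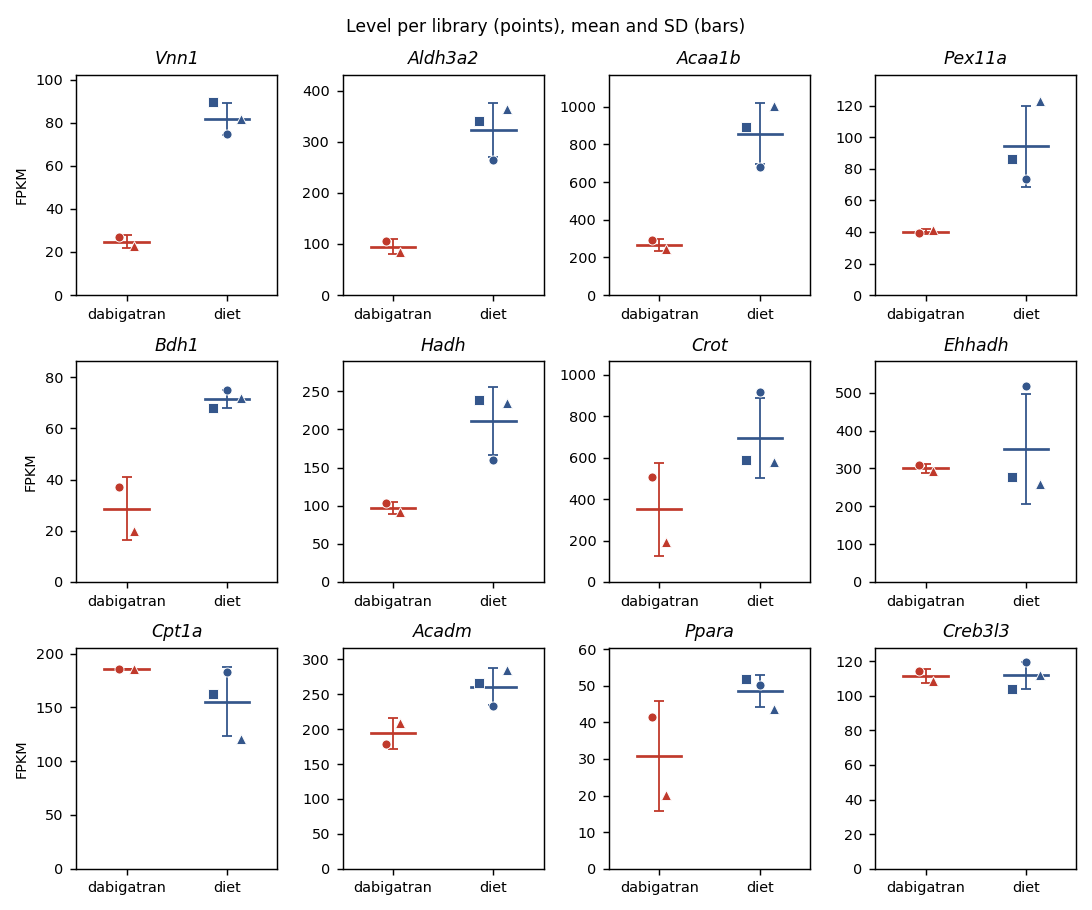
FPKM of 12 genes in each library (points; squares, circles and triangles are replicates 0, 1 and 2), with the group mean as a bar and the SD as whiskers (n = 2 dabigatran, n = 3 diet). The groups are farthest apart in Vnn1, Aldh3a2 and Acaa1b, overlap in Ehhadh and Creb3l3, and in Cpt1a the dabigatran libraries lie just above the diet libraries. The genes were chosen after their values were seen.

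The transcription factor genes had unlike values. Ppara (chromosome 15, 85734983 to 85802819), the gene of PPAR alpha itself, had 41.4 and 20.2 FPKM in the dabigatran libraries, against 51.9, 50.2 and 43.8 in the diet libraries. Dabigatran replicate 1 lay close to the lowest diet library and replicate 2 far below it (-0.73 ± 0.29, SE, adjusted p = 0.269). With 1 dabigatran library left, the difference of Ppara was -1.24 without dabigatran replicate 1 and -0.23 without dabigatran replicate 2. Creb3l3 encodes CREBH, a membrane-bound liver transcription factor that acts with PPAR alpha in fasting. It had 114 and 109 FPKM in the dabigatran libraries and 104, 119 and 112 in the diet libraries, with a difference of 0.00 (95% interval -0.37 to 0.37).

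Vnn1 (chromosome 10, 23894688 to 23905343), a pantetheinase that releases cysteamine from a breakdown product of coenzyme A, had 26.9 and 22.7 FPKM in the dabigatran libraries, against 89.3, 74.6 and 81.5 in the diet libraries. Aldh3a2 (chromosome 11, 61223417 to 61267464), a fatty aldehyde dehydrogenase of the endoplasmic reticulum and peroxisome, had 106 and 84.0 FPKM in the dabigatran libraries, against 341, 264 and 364 in the diet libraries. The spread within either group was small beside the gap between the groups in both genes. Vnn1 fell to 0.307 of the diet level (-1.70 ± 0.18, SE, adjusted p = 0.0279) and Aldh3a2 to 0.296 of it (-1.76 ± 0.21, SE, adjusted p = 0.0404). No window of either gene occurs in another gene. The dabigatran values of Vnn1 rest on 129 and 98 fragments, and its diet values on 500.0, 318 and 441.

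The calls of Vnn1, Aldh3a2 and Acaa1b kept their direction and most of their size in every alternative fit, but their place under the threshold depended on single libraries. Without dabigatran replicate 2, which leaves 1 dabigatran library, the differences were -1.58 for Vnn1, -1.59 for Aldh3a2 and -1.54 for Acaa1b. Without diet replicate 0 the adjusted p was 0.160 for Vnn1 and 0.192 for the other genes. Without diet replicate 2 it was 0.244 for each. It was also above 0.05 in the fit without a filter on low values (0.0535, 0.0724 and 0.0801) and in that without a variance trend (0.0981 for each). Without diet replicate 1 all 3 passed, together with Hadh (-1.28, adjusted p = 0.0135) and Pex11a (-1.35, adjusted p = 0.0229).

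**Figure D4:**
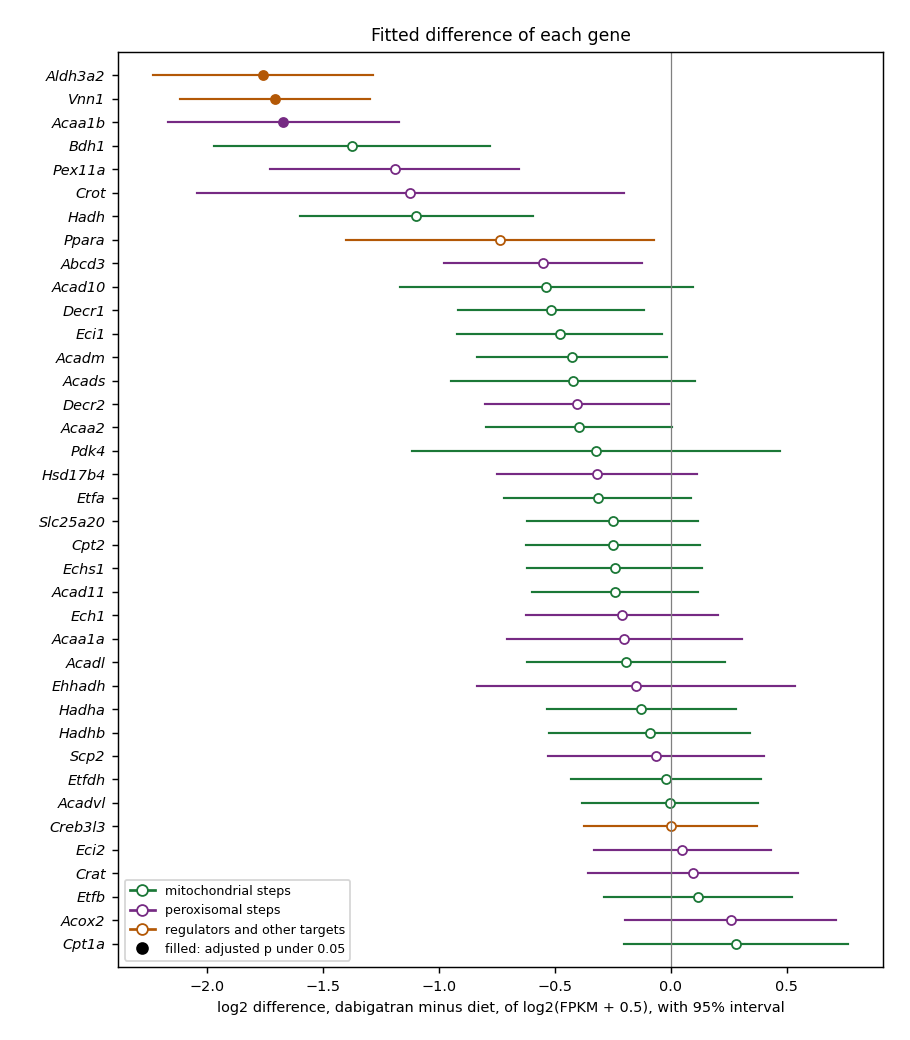
Fitted difference between dabigatran and diet for each of the 38 genes (points, log2 scale) with its 95% interval (lines), coloured by mitochondrial, peroxisomal and other genes. Filled points, for Aldh3a2, Vnn1 and Acaa1b, passed an adjusted p of 0.05 over all 10247 tested genes.

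A further 35 tested genes of fatty acid breakdown and ketone body formation that are not among the 38 gave a median difference of -0.20, beside 0.02 over all tested genes. By limma 0 of them passed over all genes, while 7 were lower and 2 higher at an unadjusted p under 0.05, beside 9.13% and 6.87% of all tested genes. Without overlap 12 were lower and 4 higher, beside 17.2% of all tested genes each way. Hacl1, the lyase that shortens branched chains by alpha-oxidation, had 154 and 179 FPKM in the dabigatran libraries and 79.7, 120.2 and 82.8 in the diet libraries, above all of them (0.84, adjusted p = 0.132). Mcee, an epimerase of the propionate pathway, had a difference of -0.61 (adjusted p = 0.202).

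Partners and other targets of PPAR alpha did not share a direction. Of 37 tested genes, 2 fell and none rose, 9 were lower and 9 higher at an unadjusted p under 0.05, and the median was 0.00. Over all tested genes 0.303% fell and 0.127% rose, and 9.13% were lower and 6.87% higher at that unadjusted p. The fatty acid binding protein gene Fabp1 had 3332 and 1756 FPKM in the dabigatran libraries, against 10751, 10425 and 10406 in the diet libraries, and fell (-2.12, adjusted p = 0.0404). Fabp2, the intestinal form of the family, had 198 and 162 FPKM in the dabigatran libraries, against 409.7, 404 and 396 in the diet libraries, and fell (-1.17, adjusted p = 0.0424). Both are carriers of fatty acids inside the cell. Their calls also rested on single libraries. Without diet replicate 0 or diet replicate 2 the adjusted p was 0.192 and 0.246 for Fabp1, and 0.246 and 0.260 for Fabp2. Fabp1 and Fabp2 also missed the threshold without a filter on low values (0.126 and 0.0860) and without a variance trend (0.0981 and 0.125), and Fabp2 did with a pseudocount of 0.1 (adjusted p = 0.0517) and after quantile normalization (adjusted p = 0.0525). By contrast, the omega-hydroxylase gene Cyp4a14 had 1399 and 1849.9 FPKM in the dabigatran libraries and 394, 804 and 376 in the diet libraries (1.71, adjusted p = 0.0751), and Cyp4a10 a difference of 1.00 (adjusted p = 0.210). Angptl4, an inhibitor of lipoprotein lipase, had 55.7 and 86.2 FPKM in the dabigatran libraries and 31.4, 39.5 and 34.9 in the diet libraries (0.97, adjusted p = 0.102). These higher genes and the lower Vnn1 and Acaa1b are all described as PPAR alpha targets in mouse liver. Whether the activity of PPAR alpha differed between the groups was not tested. The fatty acid transporter gene Cd36 had a difference of -1.89 (adjusted p = 0.0941). The hormone gene Fgf21 had 15.6 and 5.54 FPKM in the dabigatran libraries and 1.60, 10.5 and 7.19 in the diet libraries, and the coactivator gene Ppargc1a had 1.98 and 1.88 FPKM in the dabigatran libraries and 0.945, 2.48 and 1.43 in the diet libraries, with overlap in both.

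**Figure D5:**
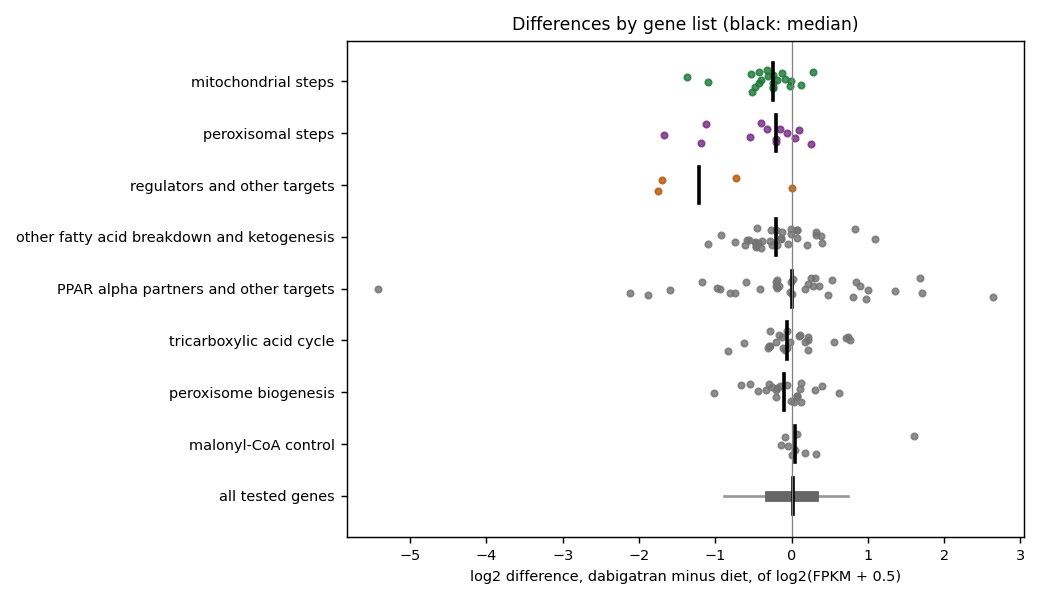
Fitted log2 differences (x axis, dabigatran minus diet) of the tested genes of each list (points, spread vertically for visibility) with the list median as a black bar. The bottom row gives all 10247 tested genes, with the thick line from the 25th to the 75th percentile and the thin line from the 5th to the 95th. The mitochondrial and peroxisomal medians lie at -0.25 and -0.21, and that of the other PPAR alpha genes at 0.00.

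Genes of neighbouring processes were compared to see where the oxidation genes differed from them. The 24 tested genes of the tricarboxylic acid cycle, which burns acetyl-CoA in the same mitochondria, had a median of -0.06. By limma 0 of them passed, with 2 lower and 3 higher at an unadjusted p under 0.05, beside 9.13% and 6.87% of all tested genes. Suclg2, a chain of succinyl-CoA ligase, had 72.7 and 77.9 FPKM in the dabigatran libraries and 142, 115 and 151 in the diet libraries (-0.84, adjusted p = 0.0878). The cycle gene Idh3a was higher in both dabigatran libraries than in any diet library (0.73, adjusted p = 0.173), and the pyruvate dehydrogenase kinase gene Pdk1 was lower (-0.63, adjusted p = 0.227). The 22 tested genes of peroxisome biogenesis and membrane had a median of -0.11. By limma 0 of them passed, with 2 lower and 0 higher at an unadjusted p under 0.05, beside the same shares of all tested genes (9.13% and 6.87%). Mpv17, a channel protein of the mitochondrial inner membrane that was at first assigned to peroxisomes, had 11.0 and 8.18 FPKM in the dabigatran libraries and 18.9, 21.4 and 19.1 in the diet libraries (-1.02, adjusted p = 0.0751). Pex7, the import receptor for thiolase and other enzymes with an amino-terminal signal, had 20.7 and 19.7 FPKM in the dabigatran libraries and 33.9, 30.1 and 33.4 in the diet libraries (-0.67, adjusted p = 0.124). Pxmp4 and Pex10 were higher in both dabigatran libraries than in any diet library (0.40 and 0.63, adjusted p = 0.323 and 0.330). Whether the lists differ from each other was not tested.

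Of 9 tested genes that set the level of malonyl-CoA, the inhibitor of the Cpt1a enzyme, 1 rose and none fell. Over all tested genes 0.127% rose and 0.303% fell. Acacb, the acetyl-CoA carboxylase at the mitochondrial surface, had 8.50 and 12.3 FPKM in the dabigatran libraries, against 3.33, 3.07 and 2.71 in the diet libraries, and rose (1.60 ± 0.25, SE, adjusted p = 0.0464). Without diet replicate 0 or diet replicate 2 its adjusted p was 0.199 and 0.260. It was 0.0554 with a pseudocount of 0.1 and 0.0544 after quantile normalization. It was 0.108 without a filter on low values and 0.0981 without a variance trend. Mlycd, which degrades malonyl-CoA, had 38.9 and 25.7 FPKM in the dabigatran libraries and 36.1, 31.5 and 37.3 in the diet libraries, with overlap. The kinase gene Stk11 and the kinase subunit gene Prkaa1, which act upstream of the carboxylases, had differences of 0.32 and 0.18 (adjusted p = 0.453 and 0.836).

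Replicates varied in the 38 genes by a median coefficient of variation of 10.1% among the 3 diet libraries, and in 32 genes the highest diet value was less than 1.5 times the lowest. Diet replicate 1 differed from the mean of diet replicates 0 and 2 most in Ehhadh (0.95 on the log2 scale), Crot (0.65) and Hadh (-0.57). Dabigatran replicate 2 differed from replicate 1 most in Crot (-1.41), Pdk4 (-1.12), Ppara (-1.02) and Bdh1 (-0.88), and was below it in 17 of the 38 genes.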

How the data were processed

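RNA of snap frozen liver was sequenced from libraries made with a TruSeq kit, per the labels' protocols. The authors' deposited values are FPKM per gene and replicate, per the file headers. The submitters' processing notes name, without roles, the builds mm10 and GRCm38 and the tools TopHat2 2.0.4, Cuffdiff, TopHat, R 2.15.1 and CASAVA. Annotation, strand use and the scaling of libraries were not given in the sources used here. The labels do not link replicate numbers between groups, and the design text counts mice without tying each library to an animal, so p-values measure the spread between these libraries.

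The members and lists were chosen with earlier results of these data known. Dabigatran replicate 0 was not analysed further because its table equals that of replicate 1, whose number both tables carry. The filter kept genes that reached 1 FPKM in 3 or more of 5 libraries (10247, all 38 members among them). Values were log2(FPKM + 0.5), a scale that understates changes of low genes, and limma 3.58.1 in R 4.3.3 (variance trend, group alone, two-sided, Benjamini-Hochberg over all tested genes, threshold 0.05) gave differences. The fit was also tested on simulated data. Each SE is on the log2 scale and each SD on that of FPKM.

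Relative depth came from the steps of values under 0.3 FPKM. For 25 of 38 members all values were multiples of 1 step with a tolerance of 3e-05, and for 0 of 38 after random shifts. Fragments given are the smallest such numbers and cover counting error only. Coordinates and 50-base windows come from GENCODE M21 (GRCm38). The text names all 38 members, the first 4 genes by p of each neighbouring list, and Fgf21, Ppargc1a, Angptl4, Fabp1, Cyp4a10, Cyp4a14 and Acacb. Some other genes that this rule takes are counted in their lists and not reported here by name. The first 3 markers of each cell type list were Alb, Apoa1 and Apob, Emr1, Clec4f and Vsig4, Stab2, Stab1 and Lyve1, Lrat, Des and Pdgfrb, Krt19, Krt7 and Epcam, Cd3e, Cd3g and Cd4, and Adipoq, Plin1 and Lep, and their lists are given as sums. Alternatives were pseudocounts of 0.1 and 1, no filter, 5 FPKM, no variance trend, quantile normalization, median-ratio scaling, each library left out, and a replicate block.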

Additional observations from a re-analysis of the deposited data

How the results depend on the processing

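Over all tested genes 31 fell and 13 rose by limma. A pseudocount of 0.1 gave 17 and 6, a filter of 5 FPKM 27 and 8, and quantile normalization 16 and 11. Without a filter on low values, or without a variance trend, 0 fell and 0 rose, with 1117 lower and 816 higher, and 870 lower and 692 higher, at an unadjusted p under 0.05. Leaving out 1 library gave 0 to 229 falls and 0 to 101 rises. It gave 0 without dabigatran replicate 2, diet replicate 0 or diet replicate 2, where 672, 586 and 576 genes were lower at an unadjusted p under 0.05. The calls of the 3 oxidation genes, Fabp1, Fabp2 and Acacb were also lost with the block, at adjusted p of 0.0658 (Vnn1 and Aldh3a2), 0.103 (Acaa1b), 0.110 (Fabp1 and Acacb) and 0.140 (Fabp2). The block is no separate estimate. Diet replicate 0 had no same-numbered dabigatran library in the fit, so the block's differences equalled those without diet replicate 0.

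Of the 38 oxidation genes 3 fell. This count was 0 without a filter, without a variance trend and with a replicate block. At an unadjusted limma p under 0.05, 13, 9 and 8 of the 38 were lower in these fits. Over all genes tested in each fit, 1117 of 15121, 870 of 10247 and 679 of 10247 were lower at that p. The count of the 38 that fell was 0 to 5 when a diet library was left out. With the block on the replicate number, 8 genes fell and 5 rose in all, and the peroxisomal median was -0.28. The numbers share no stated animal or batch, and deviations of same-numbered libraries had correlations of -0.05 and -0.03. Deviations of the dabigatran libraries mirror each other by construction, so these correlations are not separate checks of a pairing. The peroxisomal median, -0.21, was -0.35 after quantile normalization, -0.36 without the genes of both organelles, and -0.35 to -0.15 with a library left out. The mitochondrial median, -0.25, ranged from -0.30 to -0.24. Median-ratio scaling moved no count by over 1.5 times. The cause of these shifts was not tested.

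Differences near 0 changed sign when a library was left out. Their ranges were -0.39 to 0.0029 for Acadl, -0.11 to 0.11 for Acadvl, -0.28 to 0.024 for Hadha, -0.24 to 0.056 for Hadhb, -0.10 to 0.0851 for Etfdh, -0.88 to 0.24 for Pdk4, -0.33 to 0.17 for Ehhadh, -0.42 to 0.0204 for Acaa1a, -0.20 to 0.0715 for Scp2, -0.0604 to 0.25 for Crat, -0.052 to 0.0482 for Creb3l3, -0.44 to 0.16 for Mlycd and -0.0646 to 0.40 for Prkaa1. Creb3l3 was also -0.0166 after median-ratio scaling and -0.052 with the block. Of 494 values of the 38 genes under an alternative, 453 kept direction and side of the threshold.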
